A study of Danio rerio with 6 samples.

Results

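The transcriptome described here is that of wild-type (WT) zebrafish bodies at 3 dpf, sampled after the heads had been taken off for genotyping. The series holds 6 samples from the Tab5 strain, and the 3 used here are its WT pools, each made of the bodies of 10 embryos from a single clutch of a WT sibling in-cross (clutches 12, 13 and 15). The zrsr2 mutant pools of the series were not compared. Each clutch gave 1 pool and 1 library, so that clutch, pool and library cannot be told apart. The pools were whole bodies of many tissues, in which fewer cells of a type and less RNA per cell cannot be told apart. All values are in FPKM, a measure of fragments corrected for the length of a transcript and the size of the library. Transcripts listed under the same name on the same chromosome were added up to give the level of a gene. The genes were selected on these levels, as those with at least 1 FPKM in every WT pool, and 10941 of the 31886 genes listed met this rule. Since the same values chose the genes, all levels below are descriptions without a test. With a single group, SDs are over 3 pools and no difference between groups was tested.

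At 3 dpf the trunk and tail of a zebrafish embryo are packed with segmental swimming muscle, which works by sliding actin and myosin filaments past each other. The yolk is still attached under the trunk, and its outer syncytial layer packs lipids into apolipoprotein particles that feed the embryo. Blood circulates with embryonic hemoglobins, the liver and pancreas have begun to secrete their products, and the gut is not yet taking up food. The cutting of the head removes the eyes, the forebrain and most of the jaw, while the hindmost brain, the heart and the anterior gut lie near the plane of the cut.

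Coverage multiplied by length came to 9.07, 9.26 and 7.50 gigabases in clutches 12, 13 and 15, and 1 FPKM stood for a mean read depth of 11.1, 11.2 and 9.10 over a transcript. A level of 1 FPKM or more was reached by 12067, 11982 and 12079 genes in clutches 12, 13 and 15. A further 2216 genes reached it in some pools but not in every pool, 18729 stayed below it in every pool, and 6982 of these were listed at 0 throughout. The genes kept made up 98.7% of the summed FPKM of named genes in each pool. Of the 10941 genes, 9968 matched the symbol of a protein-coding gene in the RefSeq table of the assembly GRCz12tu, 24 matched a long non-coding RNA and 933 had no match. The number of reads behind an FPKM is unknown, so no counting error is given.

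The genes just inside and just outside the limit of 1 FPKM had nearly equal lowest values. Just inside were *ppm1h* (1.361, 1.0004 and 1.304 FPKM in clutches 12, 13 and 15), *epha2b* (2.98, 1.0005 and 3.51 FPKM), *quo* (1.0007, 2.66 and 5.35 FPKM), *BX547992.1* (1.41, 1.08 and 1.0010 FPKM) and a mitochondrial transcript of 71 nucleotides (1.0006, 1.81 and 1.27 FPKM). Just outside were *efr3a*, *rassf7a*, *gcnt7*, *adcy5* and *ubash3ba*. The gene *rassf7a* had 0.999, 3.34 and 3.01 FPKM by name in clutches 12, 13 and 15, so that a single pool kept it out. With the transcript of its locus that has no gene name added, it had 4.44, 4.84 and 4.26 FPKM. With such transcripts added, *quo* had 5.51, 4.92 and 5.45 FPKM. Clutch 12 was then the lowest pool for neither gene. The pools of *epha2b* then differed by 1.39-fold. The loci of *BX547992.1*, the mitochondrial transcript, *gcnt7*, *adcy5* and *ubash3ba* held no such transcripts.

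Expression was concentrated in few genes. The single highest gene took 4.59%, 4.64% and 4.65% of the summed FPKM of named genes in clutches 12, 13 and 15, the 10 highest of each pool took 22.4%, 21.5% and 21.0%, and the 100 highest took 55.3%, 54.9% and 55.9%. It took 77, 78 and 75 genes to reach 50% of the sum, and 2325, 2369 and 2247 genes to reach 90%. At the other end, the median gene had 4.42, 4.63 and 4.69 FPKM in clutches 12, 13 and 15. Levels of at least 10 FPKM in every pool were reached by 2583 genes, levels of at least 100 FPKM by 375 and levels of at least 1000 FPKM by 66.

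Of the 30 genes with the highest mean, 13 were skeletal muscle genes, 4 were mitochondrial protein genes, 3 were ribosomal protein genes and 2 were yolk apolipoprotein genes. The calcium buffer *pvalb2*, a parvalbumin of fast muscle on chromosome 12 (17710425 to 17712498, GRCz11), was first with 19199, 19848 and 20946 FPKM in clutches 12, 13 and 15. Its paralogue *pvalb1* on chromosome 3 was second with 18242, 18439 and 17310 FPKM. The 2 parvalbumins did not overlap over the pools, and both lay above every value of the next gene, *mylpfa*, a fast myosin regulatory light chain with 9099, 11149 and 10748 FPKM. Such clear steps were rare, since only 3 of the 29 pairs of neighbours in the order of the 30 highest genes had pool values that did not overlap. The alpha-actin gene *actc1b* followed (11496, 9176 and 7701 FPKM) and overlapped with *mylpfa* above it and with *apoa2* below it.

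The plot of mean FPKM by rank places the main groups along this order.

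**Figure D1:**
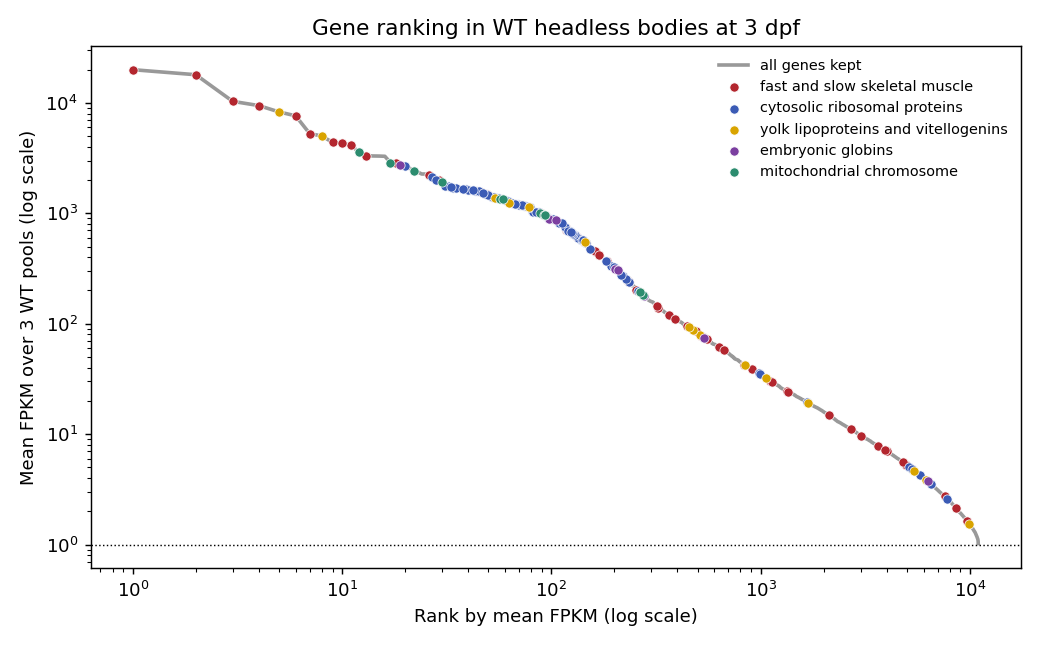
Mean FPKM over the 3 WT pools against rank, both on log scales, for the 10941 genes kept (grey line), with the members of 5 gene lists as coloured points and 1 FPKM as a dotted line. Skeletal muscle and yolk apolipoprotein genes hold all of the first 10 ranks, ribosomal protein genes crowd between ranks 20 and 100, and members of the same lists reach down to the limit.

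Skeletal muscle genes took the largest share of all 45 lists examined. Of 77 contractile, calcium handling and energy genes of trunk muscle, 63 were kept, and their summed FPKM was 107335, 105169 and 109676 in clutches 12, 13 and 15, or 24.9% ± 0.69 (SD, n = 3) of the sum of named genes. The sum therefore differed by 1.04-fold between the highest and the lowest pool. With unnamed transcripts added, 70 genes passed the limit and summed to 121352, 115958 and 114452 FPKM. Clutch 15 was thus the highest pool by name and the lowest with unnamed transcripts. Here and below, unless whole loci were summed, unnamed transcripts were added to a gene only where it was the only named gene of its locus. The unnamed transcripts of the *myhz1* locus, which holds several named genes, are therefore not in this sum.

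The members of this programme were also summed in groups formed after the values had been seen. The 4 parvalbumins *pvalb1* to *pvalb4* summed to 38580, 39239 and 39252 FPKM in clutches 12, 13 and 15. The myosin light chains *mylpfa*, *mylpfb*, *mylz3* and *myl1* summed to 23149, 24618 and 23928 FPKM. The sarcomeric actins summed to 15517, 13056 and 11670 FPKM, highest in clutch 12 and lowest in clutch 15. Creatine kinases, which recharge ATP during contraction, summed to 9817, 8783 and 7817 FPKM, in the same order of clutches. The troponins, which pass the calcium signal to the thin filament, went the other way by name, with 10110, 10485 and 14967 FPKM, and had 15943, 14870 and 16300 FPKM with the unnamed transcripts of their loci. The tropomyosins *tpma* and *tpm2* likewise summed to 1451, 671 and 5864 FPKM by name and to 6039, 5098 and 5876 FPKM with unnamed transcripts. With these transcripts counted, the pools thus lay closer together in both groups.

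The myosin heavy chains, the motors of the thick filament, were lower than the light chains and were mostly of the fast type. The fast genes (8 entries named *myhz1.1*, *myhz1.2*, *myhz1.3*, *myhz2*, *myha*, *myhb* and *myhc4*, with *myhz1.1* listed on chromosomes 5 and 22) summed to 3620, 3061 and 1769 FPKM in clutches 12, 13 and 15. Of the slow genes only *smyhc3* was kept, with 7.87, 8.996 and 6.73 FPKM. The fast gene *myhz1.3* had 703, 758 and 204 FPKM and *myhz2* had 520, 550 and 275 FPKM, both lowest in clutch 15. The *myhz1* genes lie side by side on chromosome 5 and share a StringTie locus with unnamed transcripts, so that the split of reads among these near-identical copies is uncertain. That locus, with 31 unnamed transcripts, summed to 8770, 7952 and 6792 FPKM in clutches 12, 13 and 15, more than all the named fast genes together. Clutch 15 was lowest in both sums, by less in that of the locus.

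The genes for regulators of the muscle lineage had far lower levels than most of the skeletal muscle genes above. Of 15 such genes 10 were kept, with a median of 2.55 FPKM, and the highest 3 by name were *myog* (7.13, 5.69 and 8.66 FPKM), *myf6* (7.43, 6.49 and 5.69 FPKM) and *myod1* (2.48, 6.58 and 9.05 FPKM). The 10 genes summed to 37.2, 33.8 and 39.7 FPKM by name in clutches 12, 13 and 15, with clutch 15 highest. With unnamed transcripts added, 11 genes passed the limit and summed to 61.4, 52.7 and 54.6 FPKM, with clutch 12 highest. Smooth muscle genes were kept in 8 of 11 cases, led by the actin *acta2* (82.0, 113 and 72.1 FPKM in clutches 12, 13 and 15), the myosin light chain *myl9a* (51.0, 60.3 and 60.2 FPKM) and *tagln* (60.8, 43.7 and 38.9 FPKM), a marker of smooth muscle.

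Heart genes were far lower than skeletal muscle genes, with medians of 7.13 and 202 FPKM over the genes kept. Of 21 heart genes 12 were kept, with a median coefficient of variation (CV, the SD over the mean) of 0.496, against 0.167 for skeletal muscle and 0.123 for all genes kept. Among genes alone in a locus without unnamed transcripts, the median CV was 0.253 for 6 heart genes, against 0.116 for 18 skeletal muscle genes. The heart myosin light chain *myl7* had 26.6, 10.9 and 11.5 FPKM in clutches 12, 13 and 15, *cmlc1* had 17.2, 4.79 and 15.3 FPKM, and the troponin *tnnt2a* had 9.74, 3.70 and 5.81 FPKM. All 3 were highest in clutch 12 and lowest in clutch 13, but the list as a whole was split. Of its 12 genes kept, clutch 12 was the highest pool for 5, clutch 13 for 1 and clutch 15 for 6, and clutch 12 was the lowest for 5, clutch 13 for 6 and clutch 15 for 1. Over all genes kept, clutches 12, 13 and 15 were the highest for 22.5%, 35.4% and 42.1% and the lowest for 43.4%, 30.2% and 26.4%. The highest member, *mybpc3*, which codes for a myosin-binding protein, had 51.7, 58.5 and 40.5 FPKM, with clutch 13 highest.

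The machinery of protein synthesis came second. Of 95 genes for proteins of the cytosolic ribosome 83 were kept, at a median of 1033 FPKM, and 48 of them were among the 100 highest genes. They summed to 77480, 75800 and 91922 FPKM in clutches 12, 13 and 15, or 18.9% ± 1.38 (SD, n = 3) of the sum. The highest were *rps20* (2336, 2477 and 3267 FPKM), *rpl32* (1924, 1923 and 2535 FPKM) and *rps2* (2090, 1930 and 2046 FPKM). Clutch 15 was the highest pool for 70 of the 83 genes, where it was the highest for 42.1% of all genes kept. Clutch 12 was the highest for 22.5% of all genes and clutch 13 for 35.4%, so that these shares, rather than equal ones, are the background against which such counts are read. With unnamed transcripts added, 90 of the 95 ribosomal protein genes passed the limit and summed to 82605, 82375 and 100168 FPKM in clutches 12, 13 and 15. Clutch 15 was also the pool with the fewest bases and the lowest share of unnamed transcripts, and the part of either in the count by name was not tested. Of the list of translation factors 18 of 21 genes were kept, led by the elongation factor *eef1a1l1* with 3478, 2835 and 3587 FPKM. It was followed by *tpt1*, the translationally controlled tumor protein, which is not itself an initiation or elongation factor, with 1605, 1844 and 1539 FPKM, and by the elongation factor *eef2b* with 913, 772 and 989 FPKM.

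Energy genes were split between the nucleus and the mitochondrion, and the 2 sets behaved differently over the clutches. Of 92 nuclear genes of the respiratory chain and ATP synthase 86 were kept, summing to 16827, 17014 and 18071 FPKM with a median CV of 0.0908, the lowest of the large lists. The highest were the ATP synthase subunits *atp5f1b* (949, 834 and 845 FPKM), *atp5mc3b* (794, 694 and 983 FPKM) and *atp5po* (588, 615 and 637 FPKM). Of the 13 protein genes of the mitochondrial chromosome 11 were kept, summing to 15541, 23414 and 11578 FPKM in clutches 12, 13 and 15 with a median CV of 0.510. Clutch 13 was the highest pool for 10 of these 11 genes, and for 35.4% of all genes kept. Among genes alone in a locus without unnamed transcripts, the median CV was 0.365 for 5 mitochondrial genes, against 0.0903 for 49 of the nuclear genes. The cytochrome oxidase subunit *mt-co1* had 2611, 4048 and 1997 FPKM and *mt-co2* had 3186, 4713 and 2906 FPKM, while *mt-cyb* had 1138, 2155 and 766 FPKM.

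Neighbouring mitochondrial genes are cut from long shared precursors, and their split in the tables was uneven. The gene *mt-atp8* had 2441, 2677 and 684 FPKM, *mt-atp6* had 163, 4493 and 2624 FPKM and *mt-co3* had 2973, 9.04 and 63.7 FPKM, although all 3 lie in 1 StringTie locus. That locus as a whole summed to 5577, 7179 and 3372 FPKM in clutches 12, 13 and 15. Its highest and lowest pools differed by 2.13-fold, against 329-fold for *mt-co3* alone. Likewise *mt-nd4* was at or below 0.0373 FPKM while *mt-nd4l*, whose listed transcript spans both genes (MT, 11009 to 12679), had 800, 1158 and 912 FPKM. Among the 30 highest entries was also a transcript of 71 nucleotides on the minus strand (MT, 7976 to 8046) between *mt-co1* and *mt-co2*, with 3066, 3730 and 3124 FPKM, and with so short a length its FPKM depends strongly on the length correction.

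Yolk and circulation genes formed the next group. Of 25 apolipoprotein, lipid transfer and vitellogenin genes 16 were kept, summing to 17483, 15939 and 21093 FPKM in clutches 12, 13 and 15, or 4.20% ± 0.48 (SD, n = 3) of the sum. With unnamed transcripts added, 18 genes passed the limit and summed to 22666, 21027 and 24799 FPKM. Among these, *apobb.1* had 255, 300 and 224 FPKM, against 0.170 FPKM or less in each pool by name. The lipoprotein genes *apoa2* (7988, 7366 and 9491 FPKM) and *apoa1a* (5314, 4007 and 5741 FPKM) were both among the 10 highest genes, and *apoea* followed with 1224, 1525 and 1383 FPKM. Of the vitellogenins, yolk proteins made by the mother's liver, only *vtg7* was kept, at 1.16, 1.36 and 2.12 FPKM.

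Embryonic globins, the oxygen carriers of the first red cells, summed to 4971, 3892 and 7248 FPKM over the 8 of 13 genes kept. Clutch 15 was the highest pool for 7 of the 8 genes and clutch 13 the lowest for 7, where clutch 13 was the lowest for 30.2% of all genes kept, clutch 12 for 43.4% and clutch 15 for 26.4%. The alpha-type globin *hbae3* had 2539, 2020 and 3617 FPKM in clutches 12, 13 and 15, and *hbae1.1* had 812, 695 and 1172 FPKM, both in the order 13, 12, 15 from low to high. Globin copies are near-identical and some share loci, so that their single values are uncertain. The 21 other red cell genes kept of 25 summed to 553, 525 and 556 FPKM. Most of this sum in each pool was *prdx2* (317, 304 and 309 FPKM), so that it mainly follows that gene. The next were *rhag* (53.04, 55.5 and 60.7 FPKM) and *tspo* (44.7, 30.2 and 39.0 FPKM). White cell genes of the myeloid line were kept in 18 of 28 cases, led by *cpa5* (139, 185 and 130 FPKM), a carboxypeptidase that is not restricted to white cells and whose order over the clutches was that of *prss1* and *ctrb1* of the exocrine pancreas. Next were *lyz* (33.7, 50.3 and 44.1 FPKM), the lysozyme, and *lect2l* (24.3, 40.3 and 54.9 FPKM). Of 12 lymphoid and thymus genes only *tox* was kept (3.97, 3.97 and 3.74 FPKM), and the recombinase gene *rag1* had 0.0333, 0.155 and 0.114 FPKM.

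Blood stem cell regulators were low except for *meis1b* (44.5, 41.7 and 43.3 FPKM) and *cebpa* (17.4, 16.0 and 14.3 FPKM), which are also expressed outside blood. The stem cell gene *myb*, whose protein maintains blood progenitors, had 3.205, 3.91 and 4.28 FPKM in clutches 12, 13 and 15. Its partner in stem cell emergence, *runx1*, was not kept, with 0.198, 0.0605 and 0.107 FPKM. Of 34 vessel genes 26 were kept, led by *plvapb* (28.2, 34.5 and 43.4 FPKM), *podxl* (13.8, 16.6 and 11.6 FPKM) and *cav1* (10.9, 9.63 and 8.34 FPKM), and the median CV of the list was 0.119, close to that of all genes.

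The summed levels of the lists, drawn pool by pool, show how far apart these programmes lie and how close most pools are to each other.

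**Figure D2:**
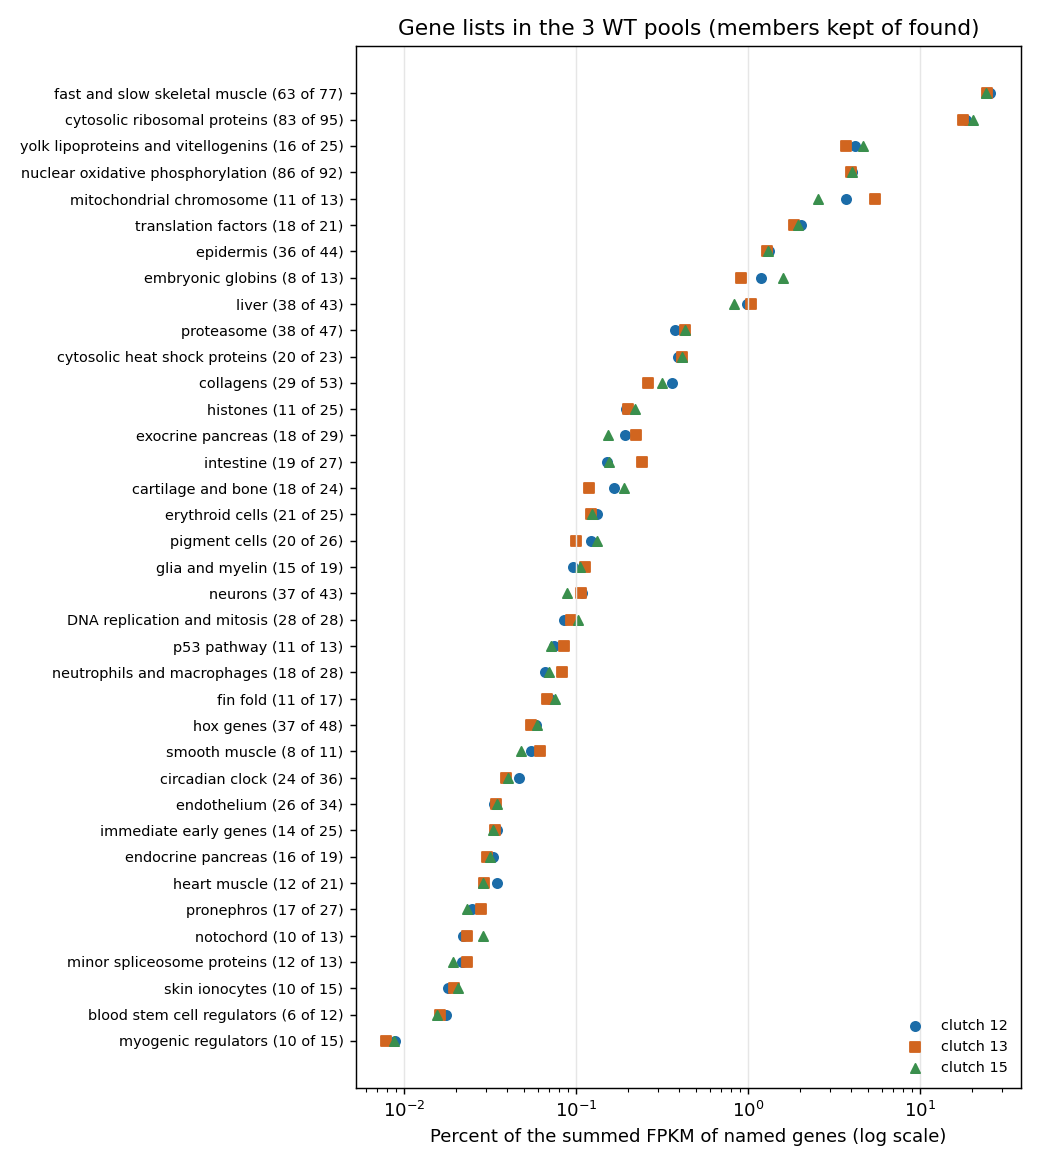
Percent of the summed FPKM of named genes (log scale) taken by each gene list with at least 6 members kept, in WT clutches 12 (circles), 13 (squares) and 15 (triangles), with the number of members kept of those found. Skeletal muscle stands near 25%, ribosomal proteins near 19% and myogenic regulators near 0.009%, and the pools part most for the mitochondrial chromosome, globins, intestine and cartilage.

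Liver genes were led by plasma proteins. Of 43 genes 38 were kept, summing to 4161, 4449 and 3736 FPKM in clutches 12, 13 and 15. The iron carrier transferrin, *tfa*, had 781, 947 and 732 FPKM, the retinol carrier *rbp4* had 595, 688 and 776 FPKM and *fetub* had 377, 261 and 219 FPKM. The liver fatty acid binding protein *fabp10a* had 345, 341 and 171 FPKM, so that clutch 15 lay apart from the others. Clutch 15 was the lowest pool for 21 of the 38 genes, and for 26.4% of all genes kept.

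Pancreas and gut genes moved with clutch 13. Of 29 genes for digestive enzymes and acinar regulators 18 were kept, summing to 805, 952 and 697 FPKM in clutches 12, 13 and 15, with clutch 13 the highest pool for 14 of the 18 and clutch 15 the lowest for 14. Over all genes kept, clutch 13 was the highest for 35.4% and clutch 15 the lowest for 26.4%. The trypsin gene *prss1* had 252, 291 and 231 FPKM, the chymotrypsin gene *ctrb1* had 128.7, 142 and 124 FPKM and *prss59.2* had 61.0, 70.31 and 58.0 FPKM. The elastase gene *ela3l* had 54.2, 86.6 and 31.1 FPKM, and its relative *ela2l* had 14.7, 35.2 and 7.06 FPKM. Intestinal genes were kept in 19 of 27 cases and summed to 633, 1034 and 706 FPKM, with clutch 13 the highest pool for 12 genes. Much of this sum was the retinol carrier *rbp2a* with 250, 549 and 329 FPKM and the fatty acid carrier *fabp2* with 195, 279 and 192 FPKM. The bile acid carrier *fabp6*, at 14.3, 7.05 and 3.25 FPKM, was highest in clutch 12. In contrast, the endocrine pancreas differed little between pools. Its 16 genes kept of 19 summed to 137, 130 and 143 FPKM, and insulin, *ins*, had 63.4, 52.8 and 69.7 FPKM.

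Skeletal matrix genes went the other way. Of 24 cartilage and bone genes 18 were kept, summing to 695, 508 and 854 FPKM in clutches 12, 13 and 15, and clutch 13 was the lowest pool for 14 and clutch 15 the highest for 13. Over all genes kept, clutch 13 was the lowest for 30.2% and clutch 15 the highest for 42.1%. The main cartilage collagen *col2a1a* had 186, 143 and 252 FPKM, *col9a1b* had 61.0, 69.6 and 88.5 FPKM and *col9a2* had 69.8, 45.3 and 67.1 FPKM. The difference was widest for *col10a1a*, a collagen of mature cartilage and of bone-forming cells in fish (30.5, 5.53 and 29.5 FPKM), for *col9a1a* (28.5, 8.58 and 37.4 FPKM) and for the cartilage matrix protein *matn1* (66.0, 27.2 and 70.9 FPKM). Among all 53 collagen genes found, which include those of cartilage, 29 were kept and clutch 13 was the lowest for 20. Their highest members by name were *col1a1a* (452, 320 and 313 FPKM), *col1a1b* (201, 150 and 154 FPKM) and *col2a1a*. The first 2, fibrillar collagens of skin and connective tissue, were both highest in clutch 12. With unnamed transcripts added, 45 of the 53 collagen genes reached 1 FPKM in every pool. Among these, *col1a2* had 198, 136 and 150 FPKM, against 0.155 FPKM or less in each pool by name.

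Skin, fin and pigment genes were led by few products. The keratin *krt4* had 2072, 2542 and 2472 FPKM in clutches 12, 13 and 15, *krtt1c19e* had 972, 879 and 1256 FPKM and *icn*, a small calcium-binding protein of the skin, had 443, 374 and 390 FPKM. The 36 of 44 skin genes kept summed to 5557, 5517 and 5878 FPKM. The fin fold genes *and2* (155, 157 and 168 FPKM) and *and1* (94.6, 92.0 and 121 FPKM), which build the horny rays of the larval fin, were highest in clutch 15, as were 10 of 11 fin fold genes kept. Skin ionocyte genes were kept in 10 of 15 cases, led by *atp6v1aa* (30.3, 33.7 and 35.8 FPKM), *ca2* (12.6, 11.9 and 15.7 FPKM) and *atp1b1b* (9.20, 12.1 and 12.2 FPKM), and 9 of the 10 were highest in clutch 15. Of all genes kept, 42.1% were highest in clutch 15. Pigment cell genes were kept in 20 of 26 cases. The purine enzyme *paics* (222, 132 and 195 FPKM) led them, with *tyrp1b* (75.1, 75.1 and 104 FPKM), an enzyme of melanin synthesis, and *atic* (56.2, 43.2 and 64.2 FPKM). The melanin gene *dct* failed the rule by 1 pool, with 0.759, 11.6 and 15.8 FPKM by name. With unnamed transcripts of their loci added, 25 of the 26 pigment cell genes reached 1 FPKM in every pool.

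Notochord genes, kept in 10 of 13 cases, were led by the matrix gene *epyc* (29.1, 41.3 and 44.6 FPKM), *ngs* (9.90, 15.4 and 19.0 FPKM) and *col8a1a* (13.4, 12.6 and 17.6 FPKM). Kidney tubule genes were led by the cadherin *cdh17* (36.6, 44.2 and 36.7 FPKM), *podxl* and the bicarbonate transporter *slc4a4a* (13.2, 12.3 and 11.1 FPKM), with 17 of 27 kept. Hatching enzymes were nearly gone, *he1.1* having 1.29, 0.120 and 0.494 FPKM, and the 3 of 8 genes of the hatching gland list that were kept (*cd63*, *xbp1* and *agr2*) are expressed widely.

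Nervous tissue genes were mostly present, with a median of 6.93 FPKM for the neuronal and 7.14 FPKM for the glial genes kept. Of 43 neuronal genes 37 were kept, summing to 454, 457 and 402 FPKM in clutches 12, 13 and 15, and clutch 15 was the lowest pool for 21. Of all genes kept, 26.4% were lowest in clutch 15. The synuclein *sncgb* had 49.9, 45.0 and 47.4 FPKM, the tubulin *tubb5* had 44.5, 47.5 and 37.3 FPKM and *sncb* had 40.6, 39.3 and 36.8 FPKM. Glial genes were kept in 15 of 19 cases, led by the radial glia genes *fabp7a* (200, 264 and 251 FPKM) and *gfap* (72.0, 76.9 and 78.3 FPKM) and by glutamine synthetase, *glula* (49.9, 57.2 and 57.6 FPKM). The hair cell genes kept were *pvalb9* (101, 138 and 140 FPKM), *s100t* (29.8, 27.1 and 26.8 FPKM), *myo6b* and *six2b*, 4 of 14.

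Genes of the lens and the photoreceptors were nearly absent from these headless bodies. None of 61 lens genes reached 1 FPKM in any pool, the highest value being 0.8001 FPKM, for *lim2.2* in clutch 13. None of 36 photoreceptor genes was kept, and the rod opsin *rho* was listed at 0 in all 3 pools. The exception in single pools was the arrestin gene *sagb*, with 0.690, 0.921 and 3.44 FPKM in clutches 12, 13 and 15, and with 4.05, 3.08 and 17.0 FPKM once unnamed transcripts of its locus were added. Of 31 genes of forebrain, eye field, midbrain and pituitary 2 were kept, *neurod6b* (3.95, 5.08 and 4.41 FPKM) and *emx2* (2.34, 2.96 and 3.16 FPKM), of which *emx2* is also expressed in the urogenital system. The transcription factor genes *otx2b* (0.216, 1.59 and 0.576 FPKM) and *en2b* (0.196, 1.24 and 0.133 FPKM), which mark the midbrain and its border with the hindbrain, were below 2 FPKM and highest in clutch 13. In contrast, *emx2* and *sagb* were highest in clutch 15. The part of the level of the cut in the differences between clutches was not tested.

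The *hox* genes, which give the body axis its positional code, had their highest sums in paralogue groups 8, 9 and 6. Of 48 genes 37 were kept, led by *hoxc8a* (19.9, 23.5 and 26.5 FPKM in clutches 12, 13 and 15), *hoxc6a* (16.6, 17.5 and 16.4 FPKM) and *hoxb8a* (14.0, 13.1 and 12.3 FPKM). When the genes were summed by paralogue group, a grouping made after the data had been seen, groups 1, 2 and 3 summed to 6.77 ± 1.41, 2.86 ± 0.40 and 11.9 ± 2.46 FPKM (SD, n = 3). Group 8 was the highest with 42.7 ± 2.53 FPKM from 3 genes, followed by group 9 with 35.6 ± 2.97 FPKM from 5 and group 6 with 32.2 ± 0.18 FPKM from 4. Group 7, with a single gene, had only 10.3 ± 1.26 FPKM. The groups hold unequal numbers of genes, and the sums were not corrected for this. Groups 8 and 9 did not overlap, and neither did groups 9 and 6, although the lowest value of group 9 was 32.5 FPKM and the highest of group 6 was 32.4 FPKM. Group 13, the most posterior, summed to 17.7 ± 1.32 FPKM over 6 genes.

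Genes of growth differed mildly. Replication and proteasome genes leaned in the direction that was also the most common over all genes kept, but in a larger share of their genes. All 28 genes of DNA replication and mitosis were kept, and they summed to 359, 398 and 461 FPKM in clutches 12, 13 and 15. Clutch 15 was the highest pool for 23 of them and clutch 12 the lowest for 22. Over all genes kept, clutch 15 was the highest for 42.1% and clutch 12 the lowest for 43.4%. The replication clamp *pcna* had 100, 106 and 126 FPKM, and the ribonucleotide reductase subunits *rrm1* and *rrm2* had 22.5, 25.4 and 29.6 FPKM and 21.6, 23.1 and 25.4 FPKM. Proteasome subunits were kept in 38 of 47 cases and summed to 1578, 1832 and 1943 FPKM, with clutch 12 the lowest pool for 32. The highest were *psma3* (75.1, 107 and 113 FPKM), *psma8* (87.6, 96.1 and 97.3 FPKM) and *psmb3* (77.5, 91.9 and 104 FPKM). Of 25 histone genes 11 were kept, led by the replacement variants *h3f3b.1* (183, 211 and 273 FPKM), *h3f3c* (188, 182 and 206 FPKM) and *h3f3d* (168, 148 and 199 FPKM).

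The lists that leaned to one clutch are set side by side as departures from each gene's own mean. For all genes kept, the median departure was -0.06, 0.01 and 0.04 on the log2 scale in clutches 12, 13 and 15. For the mitochondrial chromosome it was -0.25, 0.49 and -0.55, for cartilage and bone 0.10, -0.45 and 0.28, and for globins -0.12, -0.40 and 0.40. For the intestine it was -0.13, 0.23 and -0.20, and for the exocrine pancreas 0.01, 0.16 and -0.28. These are medians over genes of single pools, and genes of a list are not independent replicates.

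**Figure D3:**
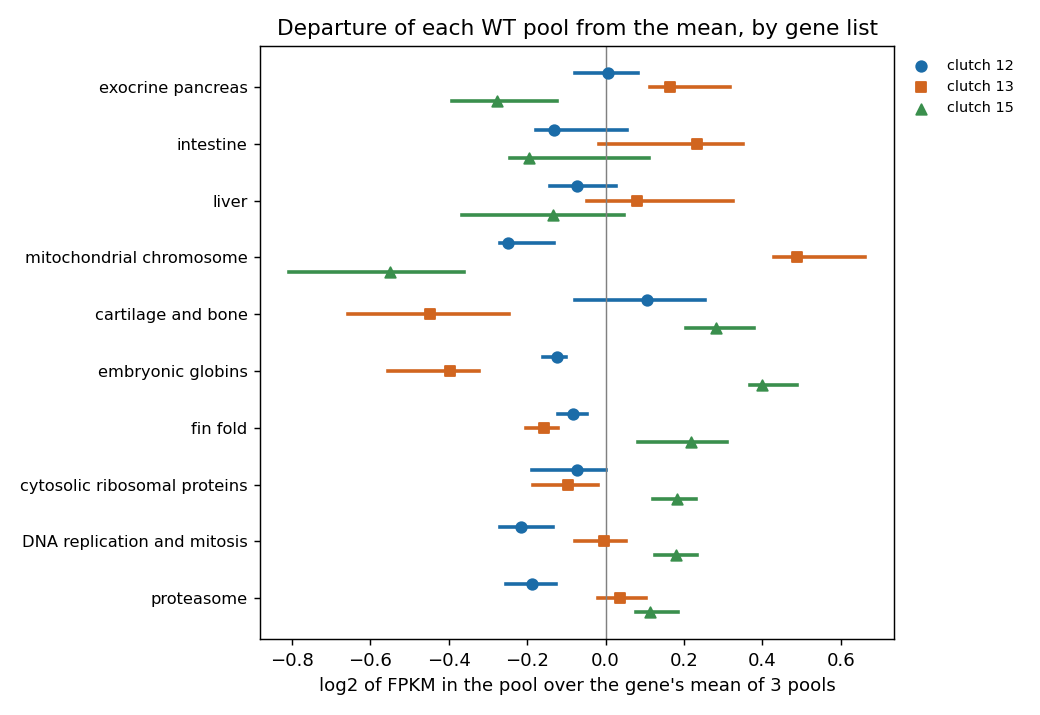
Median (points) and interquartile range (bars) over the members kept of log2 FPKM in a WT pool relative to the gene's mean of 3 pools, for 10 gene lists in clutches 12, 13 and 15. Clutch 13 lies to the right for pancreas, intestine, liver and mitochondrial genes and to the left for cartilage, globins and fin fold, and clutch 15 lies on the other side in each.

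The same direction was seen in genes whose locus held neither a second named gene nor an unnamed transcript. Of the 11 cartilage and bone genes of this kind clutch 13 was the lowest pool for 9, and of 11 exocrine pancreas genes clutch 13 was the highest for 9. Of the 32 ribosomal protein genes of this kind clutch 15 was the highest for 27. Over all 7480 such genes, clutch 13 was the lowest for 28.8% and the highest for 36.7%, and clutch 15 was the highest for 42.0%. Whether the embryos, the level of the cut or the library account for these differences was not tested.

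Most genes varied little between the pools. The median CV was 0.123 over the 10941 genes, 10% of the genes had a CV below 0.0466 and 10% one above 0.285. Rank correlations between pools were 0.952 to 0.959 (Spearman) and correlations of log2 FPKM were 0.972 to 0.976 (Pearson) across the 10941 genes, which are not independent replicates. The median CV was 0.124 for genes with a mean of 1 to 2 FPKM, 0.121 for those from 100 to 1000 FPKM and 0.142 for the 89 genes above 1000 FPKM. A difference of over 2-fold between pools was found in 3.29%, 4.78% and 12.4% of these 3 sets of genes. From 2 to 5 and 5 to 10 FPKM the share was 8.13% and 6.18%. From 10 to 20, 20 to 50 and 50 to 100 FPKM it was 4.53%, 4.83% and 8.31%. The share thus did not rise steadily with level. With at least 1 FPKM required in every pool, a mean under 2 FPKM leaves little room for a wide spread. The steadiest genes with a mean of at least 100 FPKM were the carboxylesterase *ces2a* (273, 276 and 274 FPKM in clutches 12, 13 and 15), *rpl6* (1419, 1413 and 1388 FPKM), the brain-type creatine kinase *ckbb* (127, 128.8 and 126 FPKM), the tropomyosin *tpm2* (417, 419 and 428 FPKM) and the peroxidase *prdx2*. For *rpl6* this evenness belongs to the named transcripts, since the sum with unnamed transcripts was 1419, 1413 and 1789 FPKM.

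A difference of over 2-fold between the highest and the lowest pool was found in 659 genes, or 6.02% of those kept. It fell with any pool left out, being 394 without clutch 12, 358 without clutch 13 and 321 without clutch 15. It was 393 with 1 FPKM added to each value, 1077 in values rescaled to TPM, where more genes passed the limit, and 259 when all transcripts of a StringTie locus were summed. Transcripts without a gene name mattered for this count. Among 7480 genes alone in a locus without unnamed transcripts 184 (2.46%) passed 2-fold. Among 2626 genes alone in a locus with unnamed transcripts 348 (13.3%) did, and 56 when these transcripts were added. Among 835 genes that share a locus with another named gene 127 (15.2%) passed. Of the 659 genes, 348 remained over 2-fold with unnamed transcripts added and 238 with the whole locus summed.

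The 15 widest genes with a mean of at least 5 FPKM showed this most plainly, and 12 of them were under 2-fold when the whole locus was summed. The ribosomal protein gene *rps4x* had 1418, 2.61 and 10.16 FPKM in clutches 12, 13 and 15 by its named transcripts, and 1432, 1295 and 1601 FPKM with the unnamed ones. Clutch 12 thus stood far above the other pools in the first set of values and between them in the second. The fibrinogen chain *fgb*, a clotting protein of the liver, had 130, 132 and 2.63 FPKM, and 130, 132 and 133 FPKM with unnamed transcripts. The tropomyosin *tpma* had 1034, 252 and 5436 FPKM, and 5604, 4676 and 5446 FPKM with them, and the fast troponin T gene *tnnt3b* had 359, 801 and 4847 FPKM, and 6182, 5125 and 6167 FPKM. Both lay far apart between pools by name and within 1.21-fold with the unnamed transcripts.

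The giant filament protein gene *neb* (nebulin) had 3.87, 2.55 and 37.9 FPKM by name and 110, 90.004 and 102.7 FPKM with 21 unnamed transcripts. The ubiquitin-like gene *sumo2b* had 4.20, 1.47 and 45.0 FPKM by name and 48.4, 63.6 and 45.3 FPKM with unnamed transcripts, and *rps19* had 808, 30.5 and 870 FPKM by name and 809, 886 and 986 FPKM with them. The actin gene *actc1a* of chromosome 19 had 8.83, 11.9 and 164 FPKM by name and 143, 165 and 175 FPKM, and *trap1*, a mitochondrial chaperone, had 1.11, 14.5 and 1.04 FPKM by name and 12.4, 14.5 and 14.2 FPKM. The gene *ly97.3* had 27.4, 1.29 and 23.8 FPKM by name and 35.5, 19.9 and 28.95 FPKM. In each of these the pools lay closer together in the second set of values.

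In 2 further genes the locus held other named genes as well as unnamed transcripts, and its FPKM was not assigned to either. The ribosomal protein gene *rpl10* had 1288, 1171 and 34.3 FPKM and its locus 1288, 1171 and 1671 FPKM, and the globin *hbbe1.3* had 172, 7.70 and 353 FPKM and its locus of 3 globin genes and 6 unnamed transcripts 4791, 4266 and 6487 FPKM. The genes *mt-co3* and *mt-atp6*, described above, and *tnni1b* stayed over 2-fold. The troponin I gene *tnni1b*, of the heart list, had 1.09, 13.1 and 14.2 FPKM by name and 6.79, 13.1 and 16.2 FPKM with unnamed transcripts, so that clutch 12 was lowest in both.

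**Figure D4:**
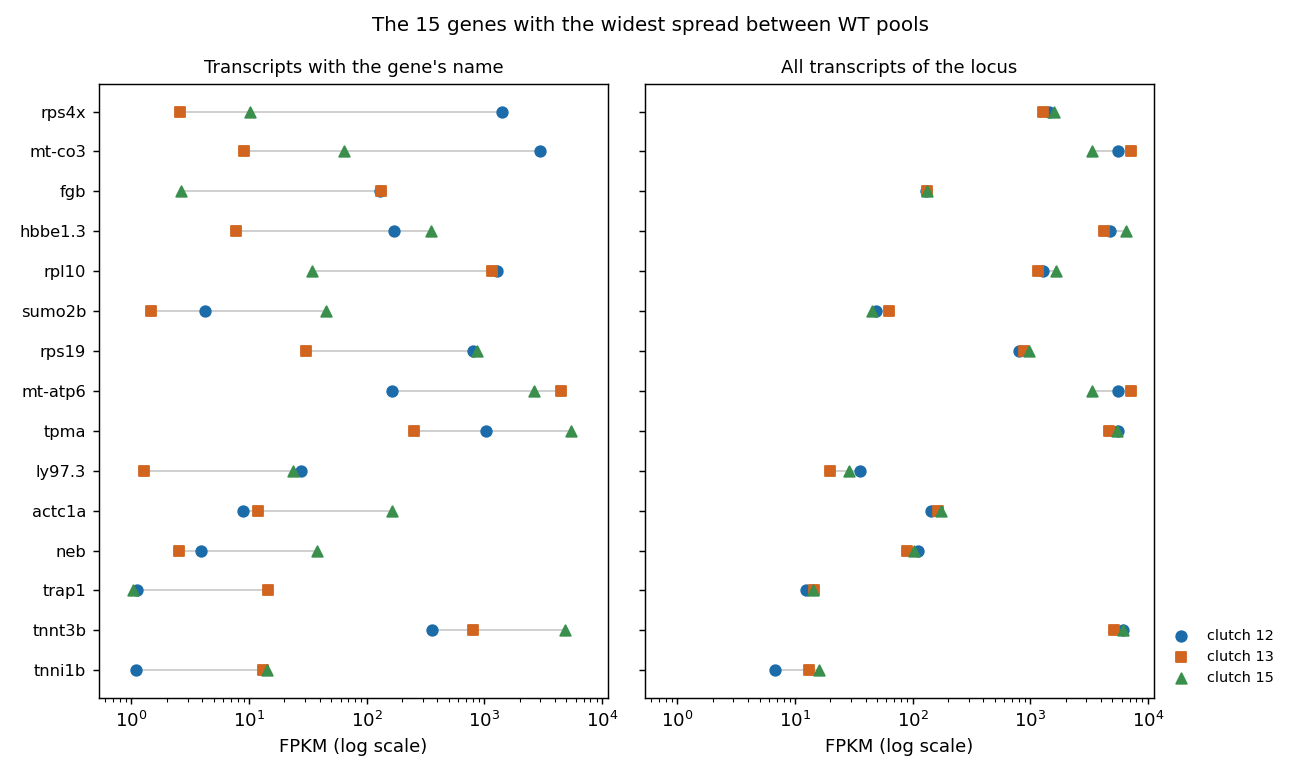
FPKM (log scale) of the 15 genes with the largest ratio of highest to lowest WT pool among those with a mean of at least 5 FPKM, from the transcripts that carry the gene's name (left) and from all transcripts of its StringTie locus (right), in clutches 12, 13 and 15. The pools span 13.1-fold to 544-fold on the left and at most 2.38-fold on the right.

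Among genes with a mean of at least 5 FPKM that are alone in a locus without unnamed transcripts, the widest were chosen after the values were known. They included *otos* (6.70, 1.69 and 9.88 FPKM in clutches 12, 13 and 15), *col10a1a*, *ela2l*, *fabp6*, *sult1st6* (6.05, 10.8 and 2.47 FPKM) and *col9a1a*, and the ratio of highest to lowest pool was 5.83 or less. Of the 184 genes over 2-fold at any level that are alone in such a locus, clutch 13 was the highest pool for 87 and clutch 15 the lowest for 104. Over all 7480 genes alone in such a locus, clutch 13 was the highest for 36.7% and clutch 15 the lowest for 25.8%.

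Use of transcripts was examined in the 6647 genes kept that have 2 or more named transcripts. A single transcript was dominant in most, its median share of the gene's FPKM being 97.8%, 97.9% and 97.7% in clutches 12, 13 and 15. In 4451 genes (67.0%) only 1 transcript reached a mean share of 10%, in 1867 (28.1%) 2 did, and in 1 gene 6 did. The leading transcript was the same in every pool for 5887 genes (88.6%) and differed between pools for 760. A different transcript led in each of the 3 pools for 29 genes.

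Among 273 genes with a mean of at least 20 FPKM and 2 or more transcripts at 10% or more, 205 (75.1%) had the same leading transcript in every pool, and in 124 the share of the first transcript moved by under 10 percentage points. The highest of the genes whose leading transcript changed was the muscle creatine kinase *ckmb*. Its first transcript, ENSDART00000059366 (chromosome 15, 23643718 to 23647078, minus strand, 7 exons, 1624 nucleotides), made up 99.1%, 36.7% and 74.9% of the gene in clutches 12, 13 and 15. ENSDART00000168845, which has 6 exons and spans 23643727 to 23645816, made up 0.00%, 63.1% and 24.9%. The gene as a whole had 5638, 5274 and 4890 FPKM.

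The listed shares also moved in ribosomal protein genes, among them *rpl28* and *rpl6*. For *rpl28* the transcript of 5 exons (ENSDART00000012055) made up 23.3%, 26.5% and 100% and that of 4 exons (ENSDART00000186407) 76.4%, 73.1% and 0.03% in clutches 12, 13 and 15, while the gene had 1202, 1110 and 1299 FPKM. For *rpl6* the transcript of 6 exons (ENSDART00000171559) made up 19.7%, 97.7% and 96.6% and that of 7 exons (ENSDART00000125124) 75.8%, 2.13% and 2.98%. How reads were shared out among overlapping transcripts and which transcripts were present cannot be told apart in these values, those of *ckmb* included. The others of the 10 highest genes whose leading transcript changed were *tpma*, *tnnt3b*, the calcium pump *atp2a1* (first transcript 42.6%, 30.2% and 50.6%), *rpl9* (88.1%, 26.9% and 81.2%), *apoeb* (49.4%, 58.9% and 52.4%), *myhz1.1* (87.7%, 49.6% and 84.9%) and *rps4x*. All these shares are of named transcripts, which can be a small part of the FPKM of the locus. In clutch 13 they summed to 252 of 4676 FPKM for *tpma* and to 2.61 of 1295 FPKM for *rps4x*. In clutch 12 they summed to 359 of 6182 FPKM for *tnnt3b*. The 2 leading transcripts of *rps4x* had 1.15 and 1.38 FPKM in clutch 13.

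In the genes with the most equal first pair of transcripts, the balance was steady over the pools in some and not in others. For *mvp*, the major vault protein, transcripts of 3147 and 3150 nucleotides with 17 exons each made up 51.7%, 51.0% and 49.1% and 48.3%, 49.0% and 50.9% of the gene. For *smyd1b*, a myosin chaperone needed to build sarcomeres, a transcript of 9 exons (ENSDART00000067093) made up 55.1%, 45.5% and 51.8% and one of 10 exons (ENSDART00000170737) 44.9%, 54.5% and 48.2%. The RNA-binding protein gene *fxr1*, which has a muscle role in vertebrates, split between a transcript of 17 exons (55.0%, 51.7% and 44.0%) and one of 16 exons (43.5%, 47.0% and 55.1%), and *sgta*, a co-chaperone, split as 56.0%, 48.5% and 47.7% against 44.0%, 51.5% and 52.3%. In *postnb* (first transcript 25.8%, 34.3% and 36.8%), 4 transcripts reached 10%. In *pkmb* (74.2%, 72.5% and 3.59%), *birc2* (0.00%, 59.7% and 68.2%), *agr1* (26.7%, 47.1% and 77.9%) and *rbmx* (34.8%, 0.13% and 40.1%) the mean balance came from pools that lay far apart.

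**Figure D5:**
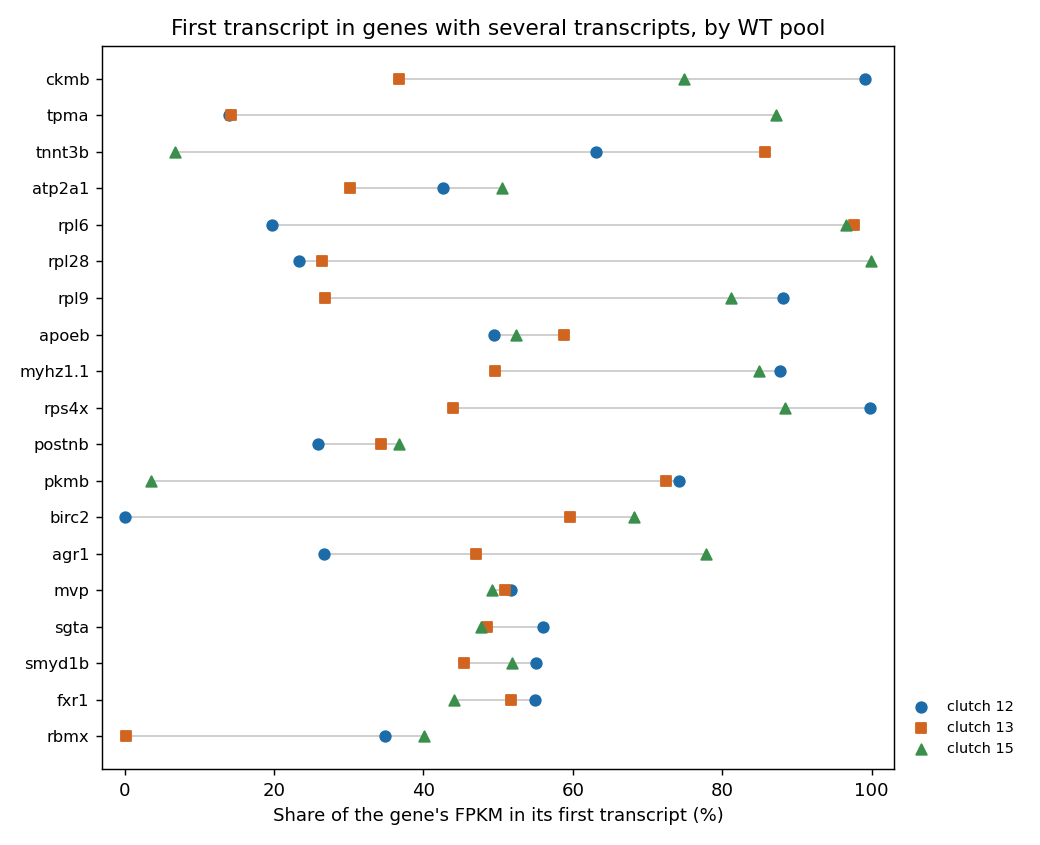
Share of the FPKM of a gene's named transcripts (%) in its first transcript, the one with the highest mean share, in WT clutches 12, 13 and 15, for the 10 highest genes whose leading transcript differed between pools and the 10 genes with the most equal first pair (*rpl28* is in both sets). Unnamed transcripts of the locus are not counted. The pools lie within 3 percentage points for *mvp* and far apart for *ckmb*, *tpma*, *tnnt3b*, *rpl28* and *pkmb*.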

How the data were processed

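RNA-Seq libraries were made by the authors from total RNA of the bodies of 10 pooled embryos per sample with a stranded kit. Reads of low quality were dropped by the authors, alignment to the build GRCz11 was by HISAT2 (version 2.2.1.0), and transcripts were estimated with StringTie 2.0.3 on Ensembl annotation. The tables list 77316 transcripts, of which 17506 have no gene name. FPKM (fragments per kilobase and per mapped library) is the unit the authors deposited for each transcript, already corrected for length and depth. Coverage, also from the deposited tables, is a mean read depth not scaled between samples and was used only for depth and the share of bases.

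Gene FPKM was summed by name and chromosome and kept at 1 FPKM or more in every WT pool. No scaling or pseudocount was applied, and no test was run, since only WT pools were used. The mutant tables were not used here. Alternatives added 9352 unnamed transcripts to the only named gene of their locus or, chosen after the data were seen, summed whole loci. The gene lists, the members and the rule for the genes named were chosen with earlier results of these data known. The rule takes the 30 highest genes, the 3 highest of each list, list members that check the removal of the head, the 15 widest and 5 steadiest genes, transcript pairs and the 5 genes on each side of the limit. Genes named beyond it (such as *ela2l*, *ela3l*, *matn1*, *col9a1a*, *col10a1a*, *dct*, *fabp6*, *fabp10a*, *myb*, *runx1*, *tnnt2a*, *vtg7*, *otos* and *sult1st6*) were chosen after their values were seen. Of the list of small RNA symbols, *snorc* was taken out because it is a cartilage gene. The search for promoter motifs and the protein identities of paralogues were planned and not run, since no sequences were at hand. Functions for spread and leading transcripts were checked on simulated data. Python 3.11.15 with pandas 2.3.3, numpy 2.4.6, scipy 1.17.1 and matplotlib 3.10.9 was used.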

Additional observations from a re-analysis of the deposited data

Results flagged for a closer look

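StringTie transcripts without a gene name are outside the gene values above, and they held between 17.1% and 21.3% of the summed FPKM of a WT pool. With those that lie in the locus of a single named gene added to it, 2269 more genes had at least 1 FPKM in every WT pool, 151 of them at least 10 FPKM and 9 at least 100 FPKM in every pool. Among the highest, *rps25* had a mean of 1448 FPKM with the unnamed transcripts against 0.0476, 0 and 0.0325 FPKM by name in clutches 12, 13 and 15. The other ribosomal protein genes *rpl8*, *rplp2* and *faua* had means of 1256, 775 and 706 FPKM with them, and the troponin T gene *tnnt2d* had 346 FPKM. By name, *tnnt2d* was listed at 0 in clutch 12 and had 385 and 365 FPKM in clutches 13 and 15. The signal in these transcripts was seen without a control sample to set it against.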

How the results depend on the processing

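The number of genes at 1 FPKM or more in every WT pool stayed within 1.5 times of 10941 under all alternatives run, 8096 at a limit of 2 FPKM and 13626 at 0.5 FPKM being the extremes, and the share of skeletal muscle genes stayed within 1 SD between pools. The share of the 100 highest genes was 53.7% with unnamed transcripts added. The median CV was 0.119 with median-of-ratios factors, 0.128 in TPM, 0.114 at a limit of 10 FPKM and with unnamed transcripts added, 0.111 with whole loci summed, and 0.0994 to 0.105 with a pool left out. The number of genes over 2-fold was 1077 in TPM, 393 with 1 FPKM added, 259 with whole loci summed and 321 to 394 with a pool left out. The share of genes with the same leading transcript in every pool was 93.2% at a limit of 10 FPKM, 78.1% with unnamed transcripts counted and 91.9% to 92.3% with a pool left out. Fewer pools leave fewer chances to differ, and rescaling to TPM let 13339 genes pass the limit. The cause of the other shifts was not tested. No paired analysis was possible because the WT pools are a single group and share no clutch number with another. With 3 pools, unknown read counts and FPKM as the only unit, neither counting error nor the spread between single embryos can be given.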

Other observations

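Genes of daily rhythm and stress, which the text has not yet described, spanned a wide range of levels. Of 36 clock genes 24 were kept, led by *tefa* (26.04, 23.8 and 26.4 FPKM in clutches 12, 13 and 15), *cry1a* (21.2, 16.1 and 18.002 FPKM) and *bhlhe40* (19.99, 15.7 and 19.2 FPKM), all regulators of the clock or its output. Clutch 12 was the highest pool for 13 of the 24 and clutch 13 the lowest for 13, and the light-induced *per2* had 10.3, 7.46 and 8.36 FPKM. Over all genes kept, clutch 12 was the highest for 22.5% and clutch 13 the lowest for 30.2%. Immediate early genes, which respond to handling within minutes, were kept in 14 of 25 cases and summed to 146, 145 and 148 FPKM, with *ier5* (26.5, 29.4 and 32.1 FPKM), *cebpd* (26.1, 27.6 and 27.97 FPKM) and *jun* (21.4, 16.2 and 20.5 FPKM) the highest. The classical early gene *fosab* was not kept, with 0.737, 0.271 and 0.806 FPKM.

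Of 23 heat shock protein genes 20 were kept, with a median of 6.97 FPKM. They were led by *hspa8* (847, 918 and 908 FPKM), *hsp90ab1* (497, 518 and 600 FPKM) and *hspd1* (89.9, 98.9 and 93.9 FPKM). The inducible *hsp70l* was not kept, with 0.464, 0.612 and 0.540 FPKM. Of 20 interferon response genes only *isg20* and *stat1a* were kept, and *isg15* had 0.137, 0.119 and 0.208 FPKM. In the p53 pathway 11 of 13 genes were kept, led by *ccng1* (234, 283 and 225 FPKM), with *rps27l* (34.5, 30.5 and 39.8 FPKM) and *sesn1* (11.9, 10.9 and 15.8 FPKM). Proteins of the minor spliceosome, which removes the rare U12-type introns, were kept in 12 of 13 cases with a median of 3.39 FPKM. The highest were *sf3b1* (38.9, 34.9 and 40.7 FPKM), *sf3b6* (23.4, 31.1 and 15.6 FPKM) and *zmat5* (7.82, 8.26 and 7.44 FPKM), of which *sf3b1* and *sf3b6* also serve the major spliceosome, and *zrsr2* itself had 1.38, 1.495 and 1.39 FPKM. The entry listed as *snrnp35* was at or below 0.0273 FPKM, while its locus, which holds another named gene, had 6.84, 9.01 and 7.40 FPKM. Of 283 small RNA entries only *MIR199B* (3.03, 1.98 and 3.55 FPKM) and *dre-mir-133b* (1.63, 1.80 and 3.03 FPKM) were kept, and 161 were listed at 0 in every pool. The FPKM of such short entries depends strongly on the length correction. How well these libraries recover short RNAs was not tested, so low values here do not show that the genes were silent.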
